A study of Homo sapiens and Mus musculus with 10 samples.

Results

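The genes described are 10 markers and regulators of the epithelial and mesenchymal cell states: CDH1, CDH2, EPCAM, VIM, ZEB1, ZEB2, SNAI1, SNAI2, ESRP1 and GRHL2. They were chosen by name, not by a measured value, from the 19970 protein-coding genes on the autosomes and the X chromosome in GENCODE release 44. Earlier results of these data were known when the choice was made. Bulk ATAC-seq, in which the Tn5 transposase inserts sequencing adapters into open DNA, was carried out on 4 human cell lines with 2 replicates each. GM12878 is an Epstein-Barr virus transformed B-lymphoblastoid line, K562 an erythroleukaemia line (its medium is given under the spelling K526), HEK293T an embryonic kidney line carrying the SV40 large T antigen, and HFF1 a foreskin fibroblast line. The labels name no treatment, genotype change or time point, so the comparison was between lines. GM12878 and K562 were grown in RPMI-1640, HEK293T and HFF1 in DMEM, so line and medium cannot be told apart, and none of the 4 is a carcinoma line. Nothing in the labels says that its 2 replicates came from separate cultures, so the spread between them may be technical.

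Epithelial cells adhere to each other through E-cadherin, the product of CDH1, and EPCAM marks their surface. In the epithelial-mesenchymal transition, the zinc finger repressors encoded by SNAI1, SNAI2, ZEB1 and ZEB2 bind E-box sequences such as those of the CDH1 promoter, and cells gain N-cadherin (CDH2) and the intermediate filament vimentin (VIM). GRHL2 and the splicing factor ESRP1 belong to the epithelial programme and oppose the ZEB factors. ATAC-seq reports whether DNA is accessible and does not measure expression of any of these genes.

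Each library has its own deposited peak list, with 52137 to 127359 peaks on the autosomes and X. HEK293T was the shallowest line: its background level, which is proportional to depth, was 0.465 and 0.466 reads per window against 1.71 to 2.43 in the other 6 libraries. A peak that is missing from a list is therefore a peak that did not pass the threshold at that depth, and not a measurement of closed chromatin. The fold given for a peak is the authors' own, its height over the background of the same library, with a constant added to both. Because of that constant the fold also varies with depth. Folds of different lines are therefore set side by side as a description and not tested. In bulk nuclei, accessibility in fewer cells and lower accessibility in each cell cannot be told apart. Of the peaks at the 10 genes, 75.9% to 89.9% were found again in the other replicate, against 79.5% to 89.4% of all peaks. The lines were checked against 6 markers each: promoter peaks were present in both replicates for 6 of 6 markers in GM12878, HEK293T and HFF1, and for 4 of 6 in K562, where KLF1 and HBG1 had none in any library. These markers were not all exclusive: 3 of the 6 GM12878 markers were called in each other line. In GM12878 4 of the 6 HFF1 markers were called, and in HFF1 4 of the 6 HEK293T markers. Of all genes, 67.8% to 76.2% were called in each line. These counts took every annotated start site. At the most 5′ start alone, 5 of 6 own markers were called in GM12878, 4 in HEK293T, 5 in HFF1 and 4 in K562.

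Regions in which the results turn on accessibility are shown as sequence, from GRCh38 and written 5′ to 3′ on the strand of the gene. Capitals mark matches to letter patterns searched on both strands: the AP-1 pattern TGAGTCA, the GATA pattern AGATAAG, the SNAI and ZEB E-box CAGGTG, the SP/KLF pattern GGGCGG and the RUNX pattern TGTGGTTT. The other 4 of the 9 patterns searched (TEAD, GGAATGT; PU.1, GAGGAAGT; grainyhead, AACCNGTT; and CTCF) had no match in these sequences, and no marked matches overlap. A match is only a run of letters, not a site shown to be bound. The RefSeq promoter table (GRCh38) matched 4 of the 10 genes. The 250 bases before the RefSeq start of VIM (chr10:17227991-17228240, plus strand) are shown because every library had a peak within 1 kb of this start. Peaks of GM12878 and K562 reached into these bases, while those of HEK293T and HFF1 began 103 to 130 bases downstream of the start.
VIM promoter: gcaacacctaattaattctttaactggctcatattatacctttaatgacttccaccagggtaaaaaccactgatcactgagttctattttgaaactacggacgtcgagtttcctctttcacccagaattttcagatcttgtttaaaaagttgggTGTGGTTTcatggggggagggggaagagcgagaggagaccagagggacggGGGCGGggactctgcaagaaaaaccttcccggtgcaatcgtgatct
This stretch holds 1 SP/KLF match, a pattern found in 42.6% of 35116 RefSeq promoters of the same length, and 1 RUNX match, found in 1.31% of them.

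The CDH1 pair below is the stretch around the summit of the strongest intronic region of the gene, shared by GM12878, HFF1 and K562 (chr16:68800406-68800556), and of a region upstream of the gene seen only in K562 (chr16:68724915-68725065).
CDH1, 3 lines: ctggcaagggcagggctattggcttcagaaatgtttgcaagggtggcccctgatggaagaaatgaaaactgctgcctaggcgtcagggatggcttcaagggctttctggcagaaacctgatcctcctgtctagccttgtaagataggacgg
CDH1, K562: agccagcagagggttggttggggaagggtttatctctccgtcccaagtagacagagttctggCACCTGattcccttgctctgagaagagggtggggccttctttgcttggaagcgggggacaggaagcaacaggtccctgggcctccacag
The shared stretch holds no match, and the K562 stretch holds 1 E-box on the opposite strand. The next 3 were seen in 1 line each, in introns of ZEB1 (GM12878, chr10:31353707-31353857) and ZEB2 (HFF1, chr2:144414606-144414756; K562, chr2:144441232-144441382), and show how the letters differ between line-specific regions of 1 gene.
ZEB1, GM12878: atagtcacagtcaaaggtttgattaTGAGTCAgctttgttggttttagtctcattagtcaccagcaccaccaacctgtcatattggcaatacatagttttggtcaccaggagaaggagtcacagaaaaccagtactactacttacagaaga
ZEB2, HFF1: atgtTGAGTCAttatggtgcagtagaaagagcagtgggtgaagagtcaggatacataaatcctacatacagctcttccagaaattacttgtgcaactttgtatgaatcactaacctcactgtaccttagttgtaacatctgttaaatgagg
ZEB2, K562: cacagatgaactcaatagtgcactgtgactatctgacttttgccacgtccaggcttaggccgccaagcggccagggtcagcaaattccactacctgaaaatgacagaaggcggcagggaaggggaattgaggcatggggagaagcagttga
The ZEB1 stretch and the HFF1 stretch of ZEB2 each hold 1 AP-1 match, and the K562 stretch of ZEB2 holds none of the patterns. The last is a K562-specific region between genes, 19228 bases downstream of the VIM start (chr10:17247394-17247544), with 2 GATA matches and 1 E-box.
VIM, K562: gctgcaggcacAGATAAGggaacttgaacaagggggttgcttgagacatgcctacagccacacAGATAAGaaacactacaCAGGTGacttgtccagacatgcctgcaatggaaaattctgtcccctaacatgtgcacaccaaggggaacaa

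Promoter accessibility was read as a peak within 1 kb of an annotated start site in both replicates of a line. Counting every annotated start site, 9 of the 10 genes had such a peak in GM12878, 7 in HEK293T, 10 in HFF1 and 8 in K562, beside 71.9%, 67.8%, 76.2% and 70.4% of all protein-coding genes. At the most 5′ start site alone the counts were 5, 7, 8 and 6 genes, beside 63.5%, 59.5%, 68.6% and 62.1% of all genes. No test was made of these counts over 10 genes. The repressor genes ZEB1, SNAI1 and SNAI2 and both EPCAM and VIM had a peak at the most 5′ start in all 8 libraries, a pattern of 51.3% of all genes, and ZEB2 joined them when every start was counted (59.7%).

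Counting every start site, the genes whose calls differed between lines were the 2 cadherins and the 2 epithelial regulators. At the most 5′ start alone, ZEB2 was called in HEK293T, HFF1 and K562 and not in GM12878, and ESRP1 in HFF1 only. CDH1 and GRHL2 had no peak at the most 5′ start in both replicates of any line (23.9% of all genes). CDH2 had one in HEK293T and HFF1 and none in any GM12878 or K562 library. Counted at any start site, this pattern held for CDH2 and for 1.23% of all genes. ESRP1 and GRHL2 were called in GM12878, HFF1 and K562 and not in HEK293T, as were 3.92% of all genes, but in GM12878 and K562 neither call came from the most 5′ start. This contrast did not hold in other settings: after thinning to the depth of HEK293T both genes were called in GM12878 only, and among the 50000 strongest peaks of each library ESRP1 was called in K562 only and GRHL2 in no line. The genes carry between 1 (SNAI1) and 46 (ZEB2) annotated start sites, so the distinction between the first start and internal starts matters for most of the 10.

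**Figure D1:**
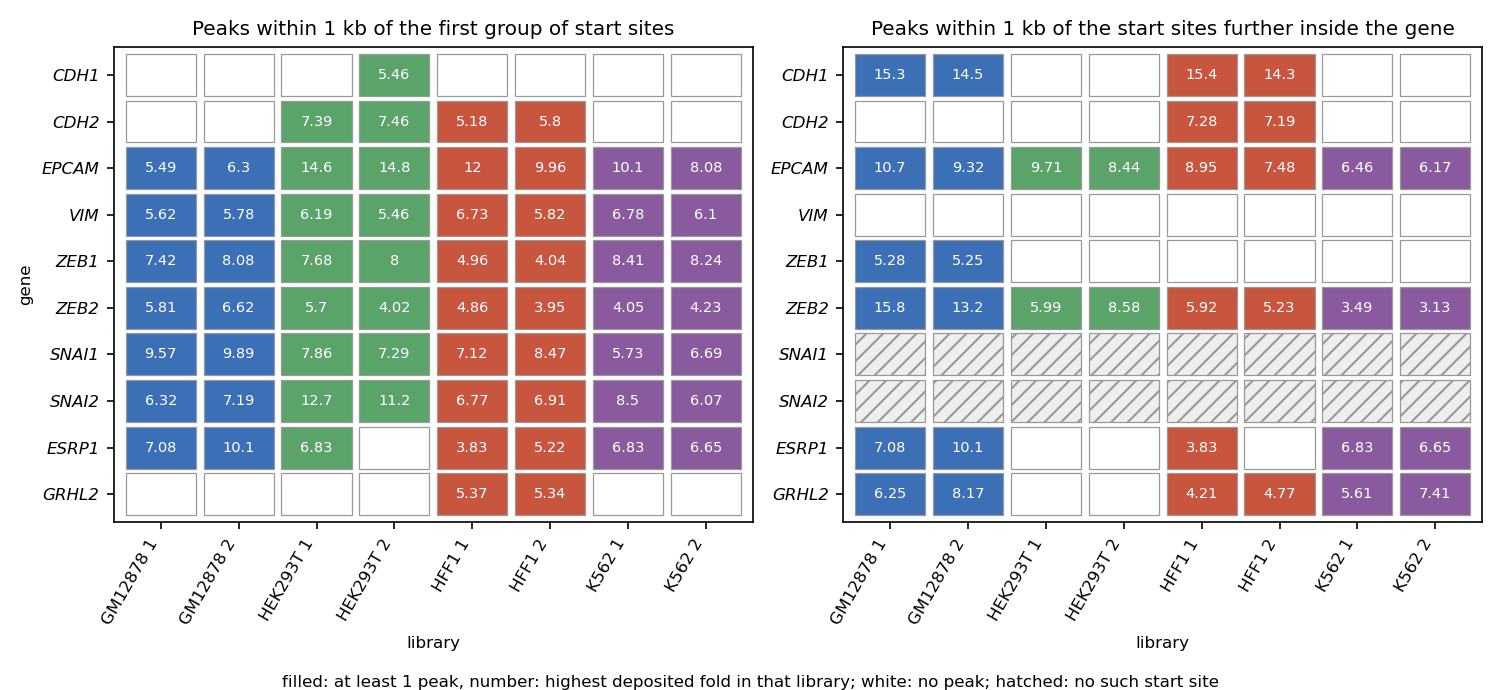
Peaks within 1 kb of start sites of the 10 genes (rows) in the 8 human libraries (columns), for the first group of start sites (left; start sites up to 1 kb apart form a group) and all groups further inside the gene (right); filled boxes mark at least 1 peak and the number is the highest deposited fold, which is relative to each library's own background. CDH2 is filled at its first starts only in HEK293T and HFF1, CDH1 only in 1 HEK293T library, and the ESRP1 peak with fold 10.1 appears in both panels because it lies within 1 kb of both groups.

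CDH1 (chr16:68737292-68835537, plus strand), the gene of E-cadherin, had no peak near its first start sites in 7 of 8 libraries. The exception was HEK293T replicate 2, with a fold over background of 5.46, and replicate 1 of that line had none. Its most prominent peak instead lay in an intron, 63189 bases inside the gene (chr16:68800168-68800865). The fold there was 15.3 and 14.5 in GM12878, 15.4 and 14.3 in HFF1, 9.67 and 8.09 in K562, and there was no peak in either HEK293T library. In GM12878 and HFF1 this peak reached within 1 kb of an internal start at 68801740, while the K562 peaks stayed outside that window. The GM12878 promoter call rested on this peak alone. HFF1 was also called at internal starts at 68763294 (5.58 and 6.52) and 68823245 (12.7 and 12.6). With a window of 500 bp the HFF1 call remained and the GM12878 call did not. Of the regions called in a line, the CDH1 region at chr16:68800168-68800865 (875 bases from the nearest start) and a GM12878 region of ZEB2 (920 bases) were the last inside the 1 kb window. The ZEB1 region described below (1188 bases) was the nearest outside it.

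Other CDH1 regions were split by line. GM12878 alone had 4 further intronic regions inside the gene, with folds from 5.39 to 8.03. Inside the gene HFF1 alone had a region over a coding exon (chr16:68823134-68823868; fold 12.7 and 12.6), one in an intron 53153 bases inside the gene (8.34 and 9.10) and 2 weaker ones. K562 alone had, besides a weaker intronic one, regions 12302 and 5141 bases upstream of the start (10.9 and 11.8; 9.34 and 9.29). The first lay inside the neighbouring P-cadherin gene CDH3. GM12878 and HFF1 also had regions of their own inside CDH3. The strongest lay 16837 bases upstream of the start in GM12878 (12.2 and 12.8) and 18511 bases upstream in HFF1 (11.2 and 9.28). Of the 32 regions in the gene and its flanks, HEK293T had 2, and both were shared by all 4 lines: an intron of CDH3 and the start of the neighbouring gene TANGO6. Thinning all libraries to the depth of HEK293T left 10 CDH1 regions in GM12878, 6 in HFF1 and 6 in K562 against 2 in HEK293T.

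**Figure D2:**
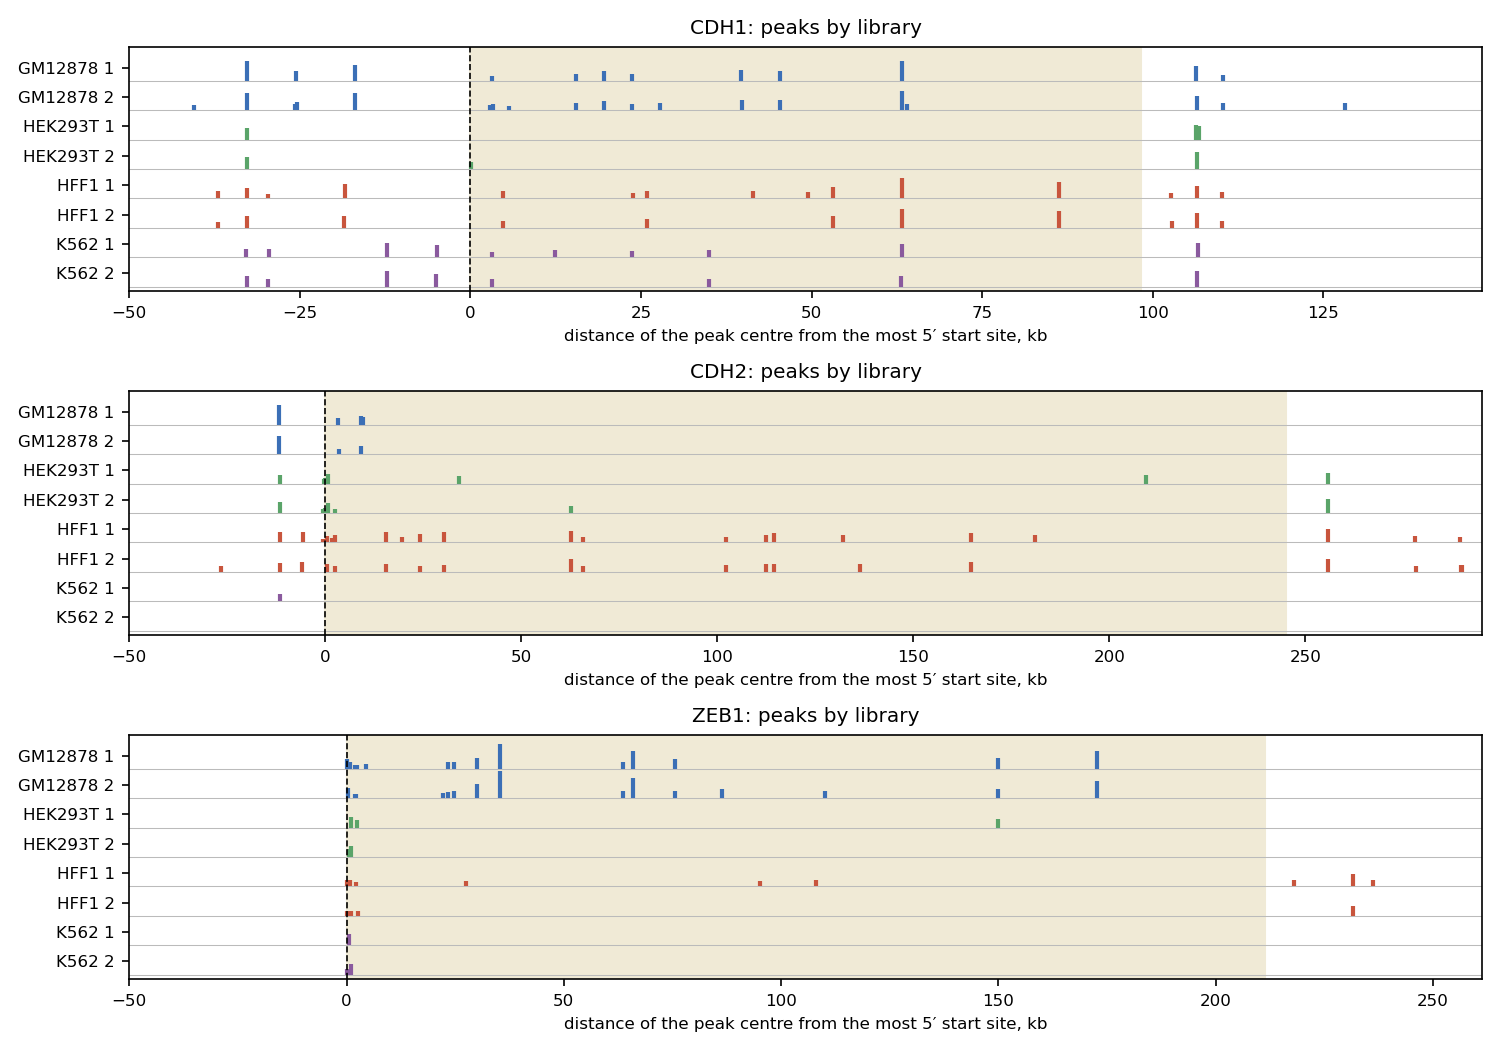
Peaks at CDH1, CDH2 and ZEB1 by library, plotted at the distance of the peak centre from the most 5′ start site in kb (dashed line), in the direction of transcription; bar height is the deposited fold (a full row is about 20), and the shaded band is the gene body. CDH1 has peaks inside the gene in GM12878, HFF1 and K562 but none in both HEK293T libraries, CDH2 has peaks along its length in both HFF1 libraries and few elsewhere, and ZEB1 in both GM12878 libraries, with 3 in HFF1 replicate 1 alone.

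CDH2 (chr18:27932879-28177946, minus strand), the gene of N-cadherin, divided the lines most sharply. Its start region (chr18:28176823-28178168) had folds of 7.39 and 7.46 in HEK293T and 5.18 and 5.80 in HFF1, and no peak in GM12878 or K562. Both adherent lines therefore had the start region and both suspension lines lacked it, at every depth setting tried. HFF1 also had 10 regions that no other library shared, 8 of them within the gene, against 1 such region in GM12878 and none in HEK293T or K562. The strongest lay 5920 bases upstream of the start (8.21 and 7.39).

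The 31 CDH2 regions included 1 that linked HEK293T and HFF1 downstream of the gene (chr18:27921837-27922506; 8.09 and 10.4 in HEK293T, 9.90 and 9.47 in HFF1). A second, 11643 bases upstream (chr18:28189478-28190049), was strongest in GM12878 (14.7 and 13.5) and was the only peak of the whole CDH2 domain in K562, in replicate 1 with a fold of 5.61. In numbers of peaks, HFF1 had 21 and 19, HEK293T 7 and 7, GM12878 4 and 3, and K562 1 and 0. The many weak HFF1 peaks depend on depth: after thinning, HFF1 had 10 and 9 peaks and 3 specific regions, and among the strongest 50000 peaks of each library it had 4 and 3 peaks against 7 and 7 in HEK293T.

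EPCAM (chr2:47345158-47387601, plus strand), the epithelial cell adhesion molecule, had a start peak (within 1 kb of a start) in all 8 libraries. Its fold was 14.6 and 14.8 in HEK293T, 12 and 9.96 in HFF1, 10.1 and 8.08 in K562 and 5.49 and 6.30 in GM12878. In both HEK293T and both HFF1 libraries this was the highest fold near the first starts of any of the 10 genes. An internal group of starts 24153 bases downstream had peaks in GM12878, HFF1 and K562 and none in HEK293T. Another, 28617 bases downstream and over a coding exon, had peaks in GM12878, HEK293T and K562 and none in HFF1. K562 had 4 regions of its own here, 2 of them adjacent in an intron about 9175 and 9597 bases inside the gene (6.52 and 8.07; 6.20 and 5.06). The 50 kb upstream is largely occupied by the divergent non-coding gene EPCAM-DT, whose start shares the EPCAM peak.

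VIM (chr10:17228241-17237593, plus strand), the vimentin gene, had a peak within 1 kb of its start in every library, in the merged region chr10:17228019-17229696. Its fold was 4.66 and 4.69 in GM12878, 6.19 and 5.46 in HEK293T, 6.73 and 5.82 in HFF1 and 6.78 and 6.10 in K562. The values of HEK293T, HFF1 and K562 overlapped, and the GM12878 pair lay below them. Just downstream, a second region (chr10:17229792-17230893) had a peak in both replicates of GM12878, HEK293T and K562 and in neither replicate of HFF1, the fibroblast line. HFF1 instead had 4 regions of its own in the flanks, including 2 at 10095 and 10722 bases from the start. A region 11854 bases upstream, inside the antisense gene VIM-AS1, reached folds of 18.7 and 19.0 in GM12878, the highest at any of these 10 genes but for ZEB1, and 5.48 to 9.66 in the HFF1 and K562 libraries, with a peak in 1 of the 2 HEK293T libraries. The VIM start window also contains a start of VIM-AS1, and peaks carry no strand.

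ZEB1 (chr10:31318495-31529814, plus strand), a repressor of CDH1, had a start peak in all 8 libraries (chr10:31318205-31319871), with folds from 4.04 in an HFF1 library to 8.41 in a K562 library. Beyond the start, regions with a peak in both replicates were found almost only in GM12878. Of 23 regions, GM12878 had 12, of which 9 were in no other library, while HFF1 had 2 and HEK293T and K562 had 1 each. The strongest GM12878 region lay 35287 bases inside the gene (chr10:31353457-31353956), with folds of 19.0 and 20.6, and 2 others had folds of 13.6 and 15.3 and of 13.6 and 12.8. After thinning, GM12878 still had 5 ZEB1 regions, 4 of them specific, against 1 in each other line. Thinning also removed the ZEB1 start call in HFF1, where the folds were 4.96 and 4.04.

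ZEB2 (chr2:144364364-144521057, minus strand), the paralogue of ZEB1, had the largest number of regions, 51, and the most start sites, in 12 groups. All 4 lines had a peak near its first group, but not the same one. HEK293T, HFF1 and K562 shared a region at the most 5′ start (chr2:144520011-144520550; folds 3.95 to 5.70) that was absent from both GM12878 libraries. GM12878 had a region of its own 1753 bases inside the gene (chr2:144519189-144519512; 5.81 and 6.62). An internal start 90203 bases inside (chr2:144430701-144431110) had folds of 15.8 and 13.2 in GM12878, 5.99 and 8.58 in HEK293T and 5.92 and 5.23 in HFF1, and no peak in K562. GM12878 had 9 specific ZEB2 regions, HFF1 3 and K562 3. The strongest of GM12878 lay in an intron 138077 bases inside the gene (14.3 and 14.1). The strongest of HFF1 (13.7 and 13.5) and of K562 (6.80 and 6.98) are those printed above.

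SNAI1 (chr20:49982980-49988886, plus strand), which encodes Snail, had a single start peak in all 8 libraries (chr20:49982387-49983494). Its fold was 9.57 and 9.89 in GM12878, 7.86 and 7.29 in HEK293T, 7.12 and 8.47 in HFF1 and 5.73 and 6.69 in K562. Only the GM12878 and K562 pairs lay apart from the rest. The gene is 5.91 kb long, and 30 of its 32 regions lay in the flanks, where HFF1 had 9 specific regions, GM12878 6 and K562 1. The strongest GM12878 one was between genes, 16576 bases downstream of the start (12.1 and 11.9).

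SNAI2 (chr8:48917598-48921740, minus strand), which encodes Slug, also had a start peak in all 8 libraries (chr8:48921220-48922161). Here the listed fold was 12.7 and 11.2 in HEK293T, against 6.07 to 8.50 in the other 6 libraries. That start was the only SNAI2 region in HEK293T. HFF1 had 9 of the 15 regions and 7 of its own, all in the gene-free flank downstream, the strongest at chr8:48891304-48891970 (14.6 and 12.4). GM12878 had 1 specific region, 28022 bases upstream, with a fold of 17.7 in both replicates, and shared another 4049 bases upstream with HFF1 and K562 (11.7 and 13.1 in GM12878). After thinning, 3 of the HFF1-specific regions were left, and the start peak was no longer called in GM12878 or K562. The non-coding gene ENSG00000288761 overlaps the SNAI2 start.

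ESRP1 (chr8:94641074-94707466, plus strand), an epithelial splicing regulator, had no region at its start called in more than 1 line. A region 575 bases upstream was called in HFF1 only (3.80 and 5.22) and had a peak in 1 of 2 libraries of GM12878 (3.64) and HEK293T (6.83). The peak behind the GM12878 and K562 calls was intronic, 1429 bases inside the gene (chr8:94642362-94642861), with folds of 7.08 and 10.1 and of 6.83 and 6.65. Deeper in the gene the lines used different regions: GM12878 had 2 of its own (11.2 and 9.51 at the stronger), HFF1 1 (6.12 and 6.21), and 1 was called in HEK293T (7.51 and 7.50). Of its 21 regions 13 were in the flanks, the downstream one holding the gene DPY19L4, and the 3 regions shared by all 4 lines were all in the flanks.

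GRHL2 (chr8:101492439-101669726, plus strand), a grainyhead transcription factor of epithelia, had no peak within 1 kb of its most 5′ start in any library. HFF1 alone had a peak near the first group of starts, 1303 bases inside the gene (5.37 and 5.34). The GM12878 and K562 calls came from internal starts. Near the start 139787 bases downstream, a region (chr8:101632561-101632816) had folds of 6.25 and 7.45 in GM12878 and 5.61 and 7.41 in K562. HFF1 had a separate region near this start (4.21 and 4.77). GM12878 alone also had a peak near a start 144331 bases downstream (4.77 and 8.17). The gene body was nevertheless far from empty. An intronic region 9143 bases inside (chr8:101501263-101501776) had folds of 17.2 and 18.2 in GM12878 and 10.0 and 9.95 in HFF1, with a peak also in replicate 1 of HEK293T (8.42) and of K562 (9.79). HEK293T and HFF1 shared a region 18109 bases upstream (14.1 and 10.4; 11.5 and 10.6), and HEK293T had 2 specific intronic regions, 2 of its 3 over all 10 genes. No GRHL2 region was shared by all 4 lines, and K562 had 1 of the 37.

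Over all 10 genes and 50 kb on each side, the merged peaks formed 291 regions. Both replicates had a peak in 96 of them in GM12878, 40 in HEK293T, 122 in HFF1 and 63 in K562, or 33.0%, 13.7%, 41.9% and 21.6%. Over the 243200 regions of the genome the shares were 36.3%, 16.5%, 42.1% and 24.8%, so the order of the lines at these genes was that of the lists as a whole. Line-specific regions numbered 43 in GM12878, 3 in HEK293T, 63 in HFF1 and 15 in K562 (14.8%, 1.03%, 21.6% and 5.15%), beside 14.7%, 1.78%, 21.2% and 6.31% of all regions. Depth moved with these counts: after thinning, HFF1 had 28 specific regions and HEK293T 7. Sharing differed with position: of 17 regions called in all 4 lines (5.84%, beside 8.53% of all regions), 5 were among the 12 regions at most 5′ starts and 12 among the 145 in the flanks, while none of those in gene bodies and none of the 29 at internal starts was. Of the 291 regions, 10 lay within 1 kb of a start of another protein-coding gene.

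The number of peaks in each gene and its flanks, per 100000 peaks of the library, was then compared between the lines. EPCAM had most in K562, with 22.9 and 23.9 against 9.83 to 13.4 in the other 6 libraries. Before scaling its K562 libraries had 18 and 17 peaks and the HFF1 libraries 17 and 15, and after thinning 10 and 15 against 12 and 8. K562 and HFF1 thus overlapped in both of these counts. Among the 50000 strongest peaks of each library they did not: K562 had 13 and 14 EPCAM peaks, against 6 to 7 in the other 6 libraries. CDH2 had 16.5 and 15.8 in HFF1 and 13.3 and 13.4 in HEK293T, against 3.93 and 2.89 in GM12878 and 1.27 and 0 in K562. SNAI2 had 7.85 and 7.48 in HFF1, 6.36 and 7.02 in K562, 2.95 and 3.86 in GM12878 and 1.91 and 1.92 in HEK293T. VIM differed less, from 8.31 to 9.83 in HFF1 and GM12878, 11.2 and 11.5 in K562 and 13.3 and 13.4 in HEK293T. Its order turned with the scaling: unscaled, HEK293T had the fewest VIM peaks (7 and 7), against 9 and 8 in K562, 10 and 10 in GM12878 and 12 and 10 in HFF1.

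An exact one-sided permutation test of the share of variance between lines, taken over every division of the 8 libraries into 4 pairs, gave these 4 genes the smallest p it can give (0.00952), with an adjusted p of 0.0404 (Benjamini-Hochberg over 19717 genes) and shares of 0.995 for CDH2, 0.988 for EPCAM, 0.984 for SNAI2 and 0.973 for VIM. Of all genes tested 23.6% were called, so 4 of 10 is a count near the background. The adjusted p was 0.0545 for GRHL2, 0.0815 for ZEB1, 0.0914 for CDH1, 0.138 for SNAI1, 0.219 for ZEB2 and 0.506 for ESRP1, whose numbers per 100000 peaks ranged only from 9.14 to 11.4. The median share of variance was 0.925 for the 10 genes and 0.903 for all genes tested. These calls depended on the setting: 0 of the 10 genes, and 0 of all genes, were called by the same test after thinning, among the 50000 strongest peaks, without the scaling, or without any 1 library other than K562 replicate 1, although 3, 5 and 10 of the genes, and 5 to 7 without 1 library, had an unadjusted p at or under 0.05 (6 in the test as given, beside 58.4% of all genes). With flanks of 10 kb only CDH2 was called.

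**Figure D3:**
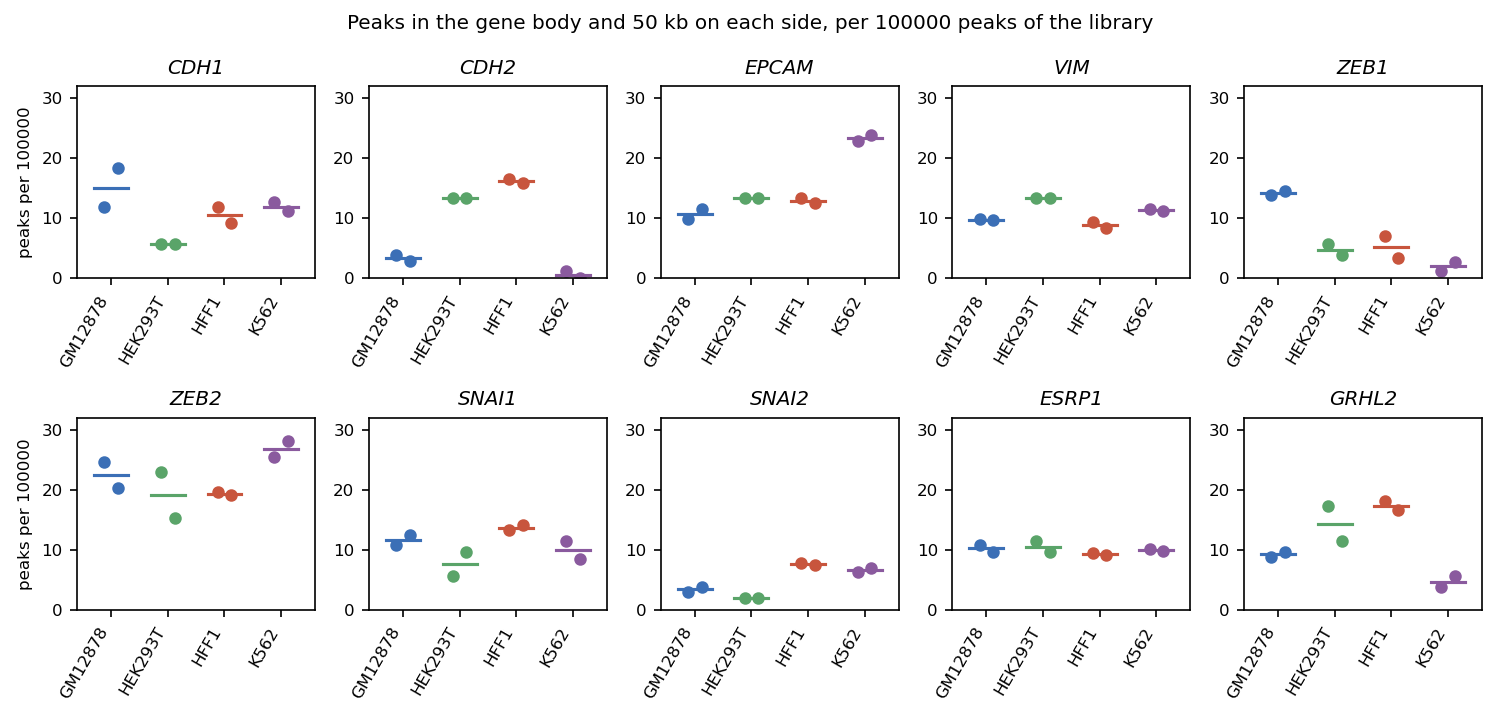
Number of peaks in each gene and 50 kb on each side, per 100000 peaks of the library, by cell line; points are the 2 replicates and lines their mean. On this scale EPCAM has its highest values in K562 (22.9 and 23.9), ZEB1 in GM12878 (13.8 and 14.5), and CDH2 is near 0 in K562, while the lines lie together for ESRP1.

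ZEB1 had 13.8 and 14.5 peaks per 100000 in GM12878 against 1.27 to 7.07 in the other 6 libraries, but its 2 HFF1 libraries differed (7.07 and 3.32). GRHL2 had 18.1 and 16.6 in HFF1, 17.2 and 11.5 in HEK293T, 8.85 and 9.64 in GM12878 and 3.82 and 5.61 in K562. The 2 HEK293T replicates reached into the HFF1 range from 1 side only. CDH1 had 5.72 and 5.75 in HEK293T, below the 9.14 to 18.3 of the other 6 libraries, among which the order could not be read because the GM12878 replicates (11.8 and 18.3) spanned the HFF1 and K562 values. Per gene domain the 10 genes had a median of 16.0 and 13.0 peaks in the HFF1 libraries beside 10.0 for all genes in each, and of 8.5 and 6.5 in the K562 libraries beside 8.0 and 7.0.

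The genes on other chromosomes whose peak numbers followed those of a member most closely over the 8 libraries were, for CDH2, PDGFC, BMPER and SEMA6D (Pearson r of 0.992 for each). For EPCAM they were ADCY10 (0.999), LRRC71 and NME3 (both 0.995). For VIM they were WDR76 (0.994), SLC6A9 (0.993) and ENSG00000288258 (0.992), and for SNAI2 ADAMTS14 (0.989), KIF26B (0.986) and RGS3 (0.983). CDH1 had lower values, with KCNS1 at 0.966, RGS12 at 0.945 and MYL9 at 0.938. All points of such a correlation come from the same 8 libraries in 4 pairs, and the best of 12039 to 17617 genes compared is high by selection, so these are descriptions.

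Letter patterns were counted within 150 bp of the summit of each region. The E-box CAGGTG was present in 57 of the 291 regions (19.6%), beside 19.7% of all regions. Away from coding starts, the AP-1 pattern was in 15 of 55 HFF1-specific regions of the 10 genes (27.3%, beside 26.2% of all HFF1-specific regions) and the GATA pattern in 5 of 15 K562-specific ones (33.3%, beside 19.8%). In GM12878-specific regions the E-box was in 9 of 37 (24.3%, beside 25.6%), and in HFF1-specific ones in 4 of 55 (7.27%, beside 9.0%). Other shares also lay apart, on few regions: the GATA pattern in 4 of 37 GM12878-specific regions (10.8%, beside 3.89%) and the AP-1 pattern in 4 of 15 K562-specific ones (26.7%, beside 14.9%). The grainyhead pattern AACCNGTT was in 3 of the 291 regions (1.03%, beside 2.05%).

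Other genes of the same programmes were taken from lists of 35 epithelial and 30 mesenchymal genes, chosen with earlier results of these data known. Promoter peaks in both replicates were found for 25 epithelial genes in GM12878, 18 in HEK293T, 27 in HFF1 and 19 in K562 (71.4%, 51.4%, 77.1% and 54.3%). For the mesenchymal genes they were found for 22, 19, 29 and 17 (73.3%, 63.3%, 96.7% and 56.7%). Against the 76.2% of all genes in HFF1, the mesenchymal list stood at 96.7% and the epithelial list at 77.1%. In HEK293T and K562 both lists lay under the share of all genes, 67.8% and 70.4%. At the most 5′ start alone, HFF1 had 25 of the 30 mesenchymal genes (83.3%) and 20 of the 35 epithelial ones (57.1%), beside 68.6%.

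**Figure D4:**
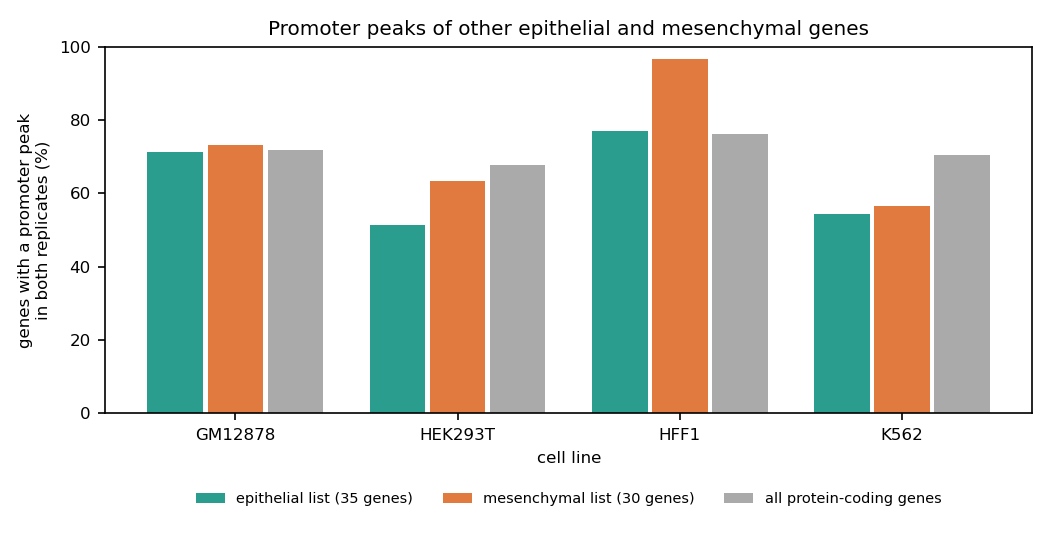
Percentage of genes with a promoter peak (within 1 kb of any start site) in both replicates, for the epithelial list, the mesenchymal list and all protein-coding genes in each human line. The mesenchymal list reaches 96.7% in HFF1, while in HEK293T and K562 both lists lie below all genes.

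Genes of the lists with a promoter peak in 1 line only were few. TAGLN, a smooth muscle actin-binding protein, and FAP, a fibroblast surface protease, had one only in HFF1, a pattern of 2.05% of all genes. The epithelial repressor gene OVOL2 had one only in HEK293T (0.336% of all genes), and AP1M2, a sorting adaptor subunit of epithelial cells, only in K562 (1.12%). No gene of the lists had one only in GM12878 (1.4% of all genes). Promoter peaks in all 8 libraries were found for 11 epithelial genes, among them the lipid enzyme gene CDS1, the transcription factor genes ELF3 and GRHL1 and the junction gene F11R. They were found for 13 mesenchymal genes, among them ACTA2, FN1 (fibronectin) and the integrin genes ITGA5 and ITGB1. Of all genes 59.7% had this pattern, a larger share than in either list. No library had a promoter peak for the epithelial genes OVOL1, RAB25 and CRB3 or the mesenchymal gene POSTN. In the test of peak numbers between lines, 5 of the 35 and 8 of the 30 genes were called, beside 23.6% of all genes.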

How the data were processed

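Bulk ATAC-seq libraries of 4 human lines (2 replicates each) were analysed, with 2 mESC libraries kept apart. Per the submitters' processing notes, cutadapt 3.2, Bowtie2 2.4.2, Picard and MACS2 2.2.7.1 were named, and hg38 and mm10 as builds; the order of steps is not given in the sources used here. The authors deposited 1 peak list per library, with each peak's score, fold, −log10 p and −log10 q values. The fold is a linear ratio of peak height over local background, with a constant added to both. Per the labels' protocols, about 20000 sorted nuclei were used per library, with 15 PCR cycles and 200 to 700 bp fragments. Lists held 52137 to 127359 human peaks.

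The 10 genes and the gene lists were chosen with earlier results of these data known. Genes and start sites came from GENCODE release 44. Peaks were merged across the 8 human libraries, called in a line when in both replicates, and specific when in no library of another line. Peak numbers per gene and 50 kb flanks, per 100000 peaks, were tested by exact permutation of the libraries, adjusted over 19717 genes at a threshold of 0.05. The test was run on simulated Poisson counts without added spread between replicates, so that check does not cover such spread in these data. Genes named from the lists had a promoter peak in exactly 1 line or, in alphabetical order, were the first in all 8 libraries; named regions were those at start sites and the line-specific region of highest lower fold, and other regions were named after their values were seen. For the depth check, pileups were recovered from fold and −log10 p. They were thinned to the lowest background level, in reads per window, by 1 random draw. Values after thinning carry the scatter of that draw, which was not measured. No interval was computed for the peaks, and PCR reads are not independent molecules. Python 3.11.15, numpy 2.4.6, pandas 2.3.3, scipy 1.17.1 and matplotlib 3.10.9 were used. Alternatives covered thresholds, list length, depth, windows, flanks, scaling and each library left out.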

Additional observations from a re-analysis of the deposited data

Results flagged for a closer look

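The mouse embryonic stem cell libraries, which enter no comparison of the report, carried a signal at the same genes: 10 of the 10 mouse genes of the same symbol had a peak within 1 kb of the most 5′ start site in both libraries (GENCODE release M21), beside 68.0% of 21951 mouse genes. Cdh1 had folds of 6.19 and 5.96 there and Grhl2 5.08 and 5.78, whereas neither human gene had a peak at that position in both replicates of any of the 4 human lines. Esrp1 had folds of 3.36 and 4.62, Epcam 4.81 and 4.48, Cdh2 6.09 and 5.77, and Snai2 11.3 and 11.7. The mouse lists are longer, with 138452 and 142297 peaks, and the difference from the human lines was not tested.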

How the results depend on the processing

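The lists hold no reads, and depth limits what is absent from HEK293T most. Counts at the 10 genes that moved by more than 1.5 times were as follows. With the 50000 strongest peaks per library, 0 genes were called by the permutation test (5 at an unadjusted p of 0.05 or less), regions numbered 47 in GM12878 and 43 in HFF1, and specific regions 16 in GM12878, 8 in HEK293T and 14 in HFF1. After thinning, K562 had 5 promoter calls, 0 genes were called by the test (3 unadjusted), regions numbered 63 in GM12878, 59 in HFF1 and 34 in K562, and specific regions 7 in HEK293T and 28 in HFF1. At the most 5′ start only, GM12878 had 5 promoter calls. With a peak in either replicate, specific regions numbered 65 in GM12878, 11 in HEK293T, 103 in HFF1 and 26 in K562. With flanks of 10 kb, 1 gene was called by the test, regions numbered 61, 23, 64 and 37 in GM12878, HEK293T, HFF1 and K562, and specific regions 26 in GM12878, 28 in HFF1 and 7 in K562. With unscaled numbers 0 genes were called (10 unadjusted). Leaving out 1 library gave 0 to 4 genes called, 43 to 59 specific regions in GM12878, 3 to 8 in HEK293T, 63 to 93 in HFF1 and 15 to 23 in K562, and 7 to 8 promoter calls in HEK293T; fewer libraries make a call and specificity easier to reach. Over all protein-coding genes the test called 4650, 0 in each setting with 0 members, and 13398 by base pairs covered. With a replicate block, 0 of the 10 genes were called (5 unadjusted), since the smallest p it can give is 0.0417. The deviations of same-numbered libraries had correlations of -0.016 to 0.027. These values cannot exclude that same-numbered libraries were prepared together, which the labels do not state. The cause of the other changes was not tested. For single genes, adjusted p-values over all settings ran from 0.025 to 0.122 for CDH2, 0.025 to 0.148 for EPCAM, 0.025 to 0.81 for VIM and 0.0404 to 0.309 for SNAI2. In all, 263 of the alternative values kept their side or size, 38 moved, 48 lost and 3 gained a call. These counts and shares of variance have no sign, so they do not show the order of the lines, which for VIM turned over without the scaling.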
